A study of Mus musculus with 30 samples.

Results

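The genes described here are the 4 tissue inhibitors of metalloproteinases (Timp1, Timp2, Timp3 and Timp4) and 6 matrix metalloproteinases (Mmp2, Mmp3, Mmp8, Mmp9, Mmp14 and Mmp15). They are 10 of the 55487 gene identifiers in the count table and were chosen by gene symbol, with earlier results of these data known. Matrix metalloproteinases (MMPs) are zinc-dependent enzymes that cut collagens, other matrix proteins and some proteins of the cell surface. They are made as inactive precursors, and the TIMPs block the active enzymes by binding in the catalytic cleft. In the heart both families are known for their part in the turnover of the matrix around the muscle cells, and Timp1 RNA is known as a gene switched on by injury and inflammatory signals.

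The counts come from the hearts of 30 mice, taken 8 weeks after surgery that was either sham or transverse aortic constriction (TAC). In TAC a clip, here of 0.016 or 0.018 inch, narrows the aorta and loads the heart with pressure. The labels do not say which mouse had which clip, nor the age of the mice. The floxed cohort holds mice labelled CPT1a floxed (FF_sham and FF_TAC) and mice labelled cardiac specific CPT1a knockout (KO_sham and KO_TAC), with 4 hearts in each group. The titles of all KO_TAC samples read TAC Sham, and these samples were placed by their genotype and treatment labels. In the AAV9 cohort C57Bl/6 mice received PBS (PBS_sham and PBS_TAC, 3 hearts each) or AAV9.Cpt1a (AAV_sham and AAV_TAC, 4 hearts each), a viral vector that the design text describes as driven by the cardiac troponin T promoter. Cpt1a is needed for long-chain fatty acids to enter mitochondria, where they are burnt. The driver of the knockout is not given in the sources used here, and the design text calls it a knockdown. The study asked what Cpt1a does in the pressure-loaded heart, and the comparisons below give the MMP and TIMP transcripts in that setting. In RNA from whole hearts, fewer cells of a type and less RNA per cell cannot be told apart.

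Some libraries of the floxed cohort stand apart or go against their labels. Total counts ran from 14839758 to 22070373 per library. Levels below are counts-per-million values (CPM) after TMM scaling, which was done within each cohort, so that levels of the 2 cohorts are set side by side with that limit. Cpt1a was 37.8 to 52.7 CPM in FF_sham and 11.1 to 19.6 CPM in KO_TAC. It was 46.3 CPM in the library labelled KO_sham 2, as high as in FF_sham, and 20.3 and 16.2 CPM in those labelled FF_TAC 2 and FF_TAC 3, so directions drawn from KO_sham and FF_TAC rest on those labels. Among AAV9 cohort hearts the level of Cpt1a was 71.4 ± 13.4 CPM for AAV_sham and 54.9 ± 8.09 in AAV_TAC (SD, n = 4 each), and 52.1 ± 15.3 in PBS_sham and 53.0 ± 11.2 in PBS_TAC (SD, n = 3 each). The ranges of the AAV and PBS hearts overlapped after both surgeries, so Cpt1a RNA does not separate these labels. Summed haemoglobin RNA was 1.40 to 51.1 CPM in these 3 libraries and in all 4 KO_TAC libraries, and 294 to 943 CPM in the other 23. In the same 7 libraries 12 early response genes (Fos, Egr1, Atf3 and others) averaged 7.07 to 8.65 on the log2 CPM scale, and 3.08 to 3.81 in the rest of the floxed cohort. KO_TAC therefore lies wholly on one side of a split that the labels do not name, and results for KO_TAC are given below also with that split as a term in the model or without the 3 libraries outside KO_TAC. Mitochondrial genes took 12.1 to 18.7% of the counts in KO_TAC and 19.3% or more in every other library, and the part of this in the results for KO_TAC was not tested. Cardiomyocyte markers were abundant in every library, with a sum of at least 25700 CPM, the lowest being PBS_sham 3. That library also had the highest sums of all libraries for smooth muscle and pericyte markers (2440 CPM) and for endothelial markers (1710 CPM).

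The promoters of Timp1, Mmp14 and Mmp3 are printed because these 3 genes had the largest rises in KO_TAC. Each line gives the 250 bases before the transcription start, from RefSeq on GRCm38.p6, in the direction of transcription. Capitals mark the letters TGANTCA, the core of the AP-1 site to which Fos and Jun proteins bind, searched on both strands.
Timp1: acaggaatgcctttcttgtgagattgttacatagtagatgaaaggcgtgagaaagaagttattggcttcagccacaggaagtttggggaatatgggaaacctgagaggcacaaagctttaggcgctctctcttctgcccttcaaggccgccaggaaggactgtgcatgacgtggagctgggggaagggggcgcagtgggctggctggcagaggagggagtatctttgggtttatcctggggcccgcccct
Mmp14: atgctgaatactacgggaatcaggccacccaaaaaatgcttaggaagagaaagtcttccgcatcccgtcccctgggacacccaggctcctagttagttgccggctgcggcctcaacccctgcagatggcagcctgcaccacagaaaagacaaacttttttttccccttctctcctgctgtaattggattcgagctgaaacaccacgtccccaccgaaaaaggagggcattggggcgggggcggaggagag
Mmp3: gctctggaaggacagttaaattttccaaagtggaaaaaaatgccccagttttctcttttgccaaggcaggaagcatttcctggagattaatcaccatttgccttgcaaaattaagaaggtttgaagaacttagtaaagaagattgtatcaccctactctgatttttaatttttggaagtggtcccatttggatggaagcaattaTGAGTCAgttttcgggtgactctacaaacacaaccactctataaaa
The Timp1 stretch lies at chrX:20869916-20870165, that of Mmp14 at chr14:54431348-54431597 and that of Mmp3 at chr9:7445572-7445821, all on the plus strand. A promoter was matched for 8 of the 10 genes: the 4 TIMPs, Mmp3, Mmp8, Mmp14 and Mmp15. In windows of 300 bases that add 50 bases after the start, TGANTCA occurred in 1 of the 8, in Mmp3, as TGAGTCA ending 39 bases before the start. Of 32851 RefSeq promoters of the same length, 7.81% held TGANTCA. A match is a stretch of letters and says nothing of binding, and its absence says only that these letters are not in this window.

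Of the 10 genes, 9 had enough counts to be tested in each cohort, and Mmp8, the neutrophil collagenase, did not. Mmp8 (ENSMUSG00000005800, chr9:7558456-7568485) held 0 to 3 counts per library and 20 counts in all 30. A count of 0 allows up to 3 counts, or 0.136 to 0.202 CPM at these depths, which covers counting error only. No fold is given for Mmp8.

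The inhibitors are described first. Timp1 (ENSMUSG00000001131, chrX:20870166-20874735 on GRCm38, inside an intron of Syn1 on the other strand with no exon shared) encodes a secreted inhibitor of most soluble MMPs. Its level in KO_TAC was 42.9, 136, 174 and 63.1 CPM. In KO_sham it was 16.2 CPM in library 1, 8.85 in library 3, 5.80 in library 4 and 4.01 in the library labelled KO_sham 2. All 4 KO_TAC hearts lay above every other heart of the study, the next being KO_sham 1 at 16.2 CPM. With edgeR (quasi-likelihood test, Benjamini-Hochberg adjustment over all genes tested), Timp1 rose in KO_TAC against KO_sham by a log2 fold change of 3.57 (SE 0.65, adjusted p 0.00282, n = 4 each), which is 11.9-fold. With the haemoglobin split in the model the change was 2.74 and was not called (adjusted p 0.146), and without the 3 libraries that stand apart it was 3.32 (adjusted p 0.00164).

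In FF_TAC, Timp1 was 2.96, 9.89, 14.7 and 2.1 CPM. The libraries FF_TAC 2 and FF_TAC 3, which had little haemoglobin RNA, were the high ones, and FF_TAC 1 and FF_TAC 4 lay within the FF_sham range of 1.04 to 4.58 CPM. Against FF_TAC, Timp1 rose in KO_TAC by 3.82 (SE 0.66, adjusted p 0.00238), or 14.1-fold. Among the haemoglobin-low libraries alone (4 KO_TAC against 2 FF_TAC) the difference was 3.05 (adjusted p 0.21), a fit in which edgeR called 0 of 15311 genes and 1620 had an unadjusted p under 0.05. With the split in the model it was 3.57 (adjusted p 0.0104), and with the 3 libraries left out 5.34 (adjusted p 0.000609). FF_TAC against FF_sham gave 1.61 (SE 0.67, adjusted p 0.417), and 0.07 among the haemoglobin-high libraries alone. KO_sham against FF_sham gave 1.86 (SE 0.67, adjusted p 0.90), with FF_sham 2 at 4.58 CPM overlapping the library labelled KO_sham 2.

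In the AAV9 cohort Timp1 stayed at a low level in all 4 groups, with means of 1.74 ± 1.08 CPM in AAV_sham and 4.44 ± 2.48 in AAV_TAC (SD, n = 4 each), and 3.90 ± 1.71 in PBS_sham and 4.16 ± 0.70 in PBS_TAC (SD, n = 3 each). No Timp1 difference in this cohort was called. The order of the 8 group means was KO_TAC, KO_sham, FF_TAC, AAV_TAC, PBS_TAC, PBS_sham, FF_sham and AAV_sham, and of neighbours in that order KO_TAC and KO_sham alone had ranges that did not overlap.

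**Figure D1:**
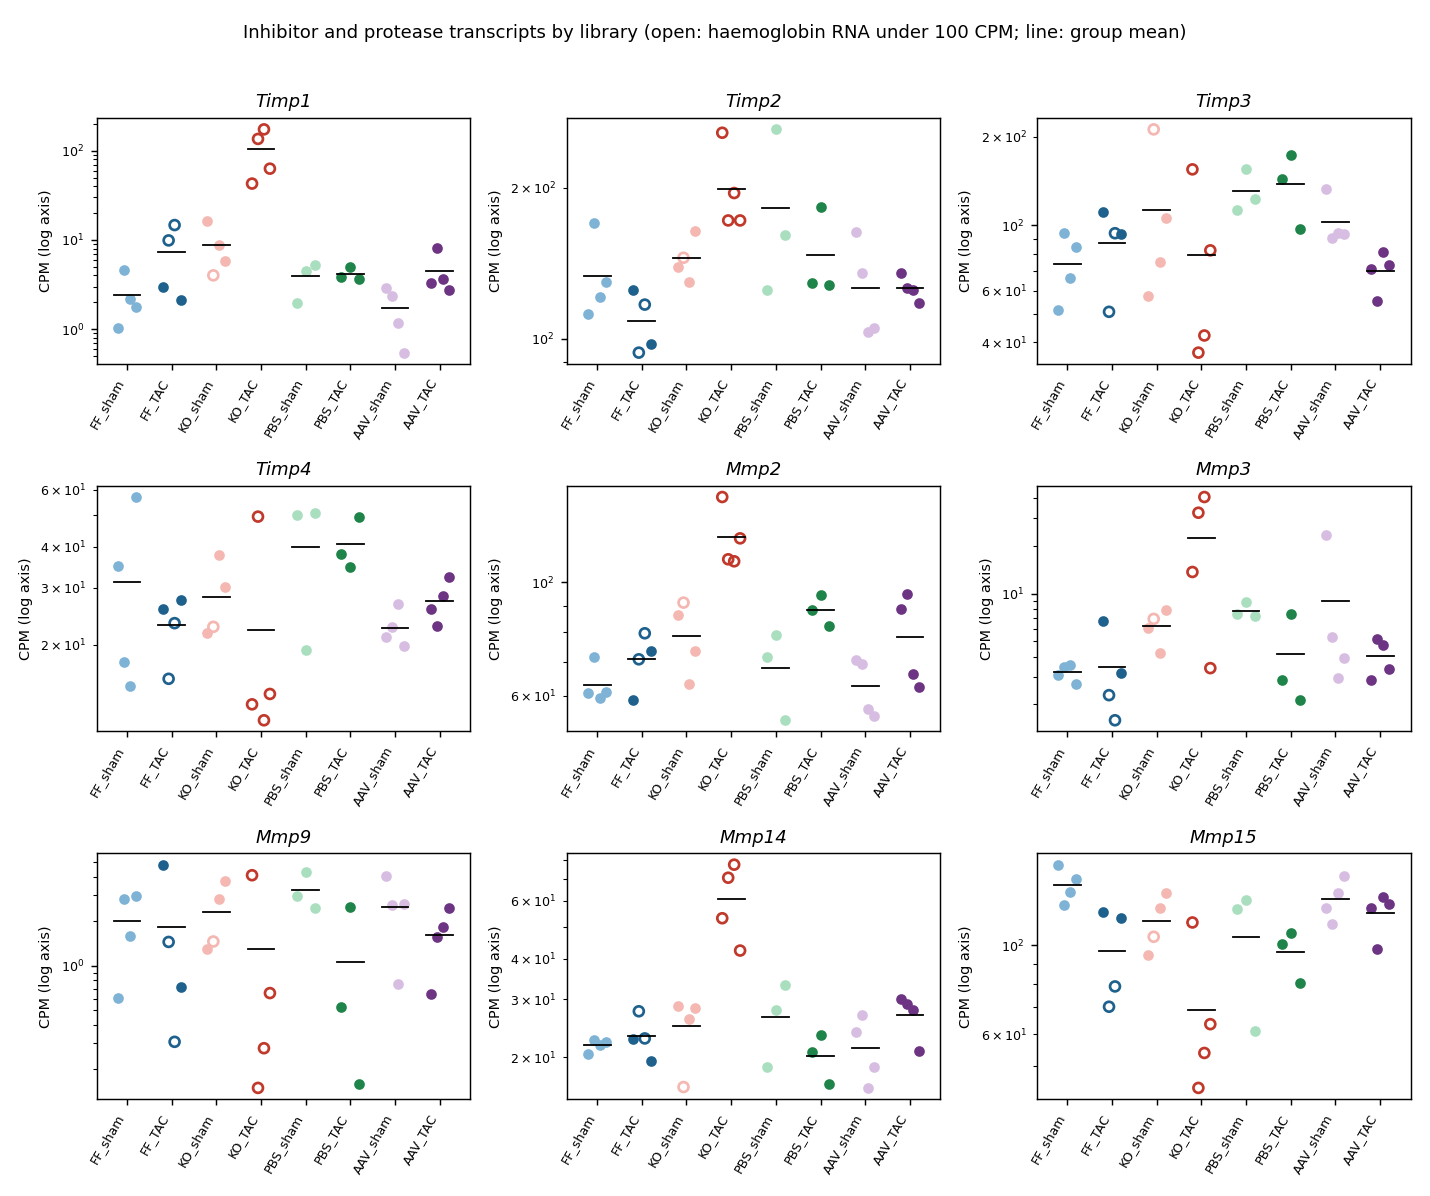
CPM of the 9 tested genes (log axes) in each of the 30 libraries, by group, with a line at the group mean and open circles for libraries with haemoglobin RNA under 100 CPM. The 4 KO_TAC hearts lie above all other floxed hearts for Timp1, Timp2, Mmp2 and Mmp14, and Timp3, Timp4 and Mmp9 overlap between KO_TAC and the other floxed groups.

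Timp2 (ENSMUSG00000017466, chr11:118301069-118355740, minus strand) inhibits MMPs and, bound to Mmp14 at the cell surface, also takes part in the activation of the Mmp2 precursor. Its level in KO_TAC was 257, 172, 195 and 172 CPM. In KO_sham it was 139, 145, 130 and 164 CPM, and in FF_TAC 125, 93.9, 117 and 97.9 CPM. Every KO_TAC heart lay above every KO_sham and FF_TAC heart, although the gap to KO_sham was small. Timp2 rose in KO_TAC against FF_TAC by 0.88 (SE 0.16, adjusted p 0.00263) and against KO_sham by 0.47 (SE 0.16, adjusted p 0.0399). The call against KO_sham was lost when any of 6 libraries was left out: the library labelled KO_sham 2 (0.46, adjusted p 0.0782), KO_sham 1 (0.45, 0.0862), KO_sham 3 (0.41, 0.111), KO_sham 4 (0.52, 0.0527), KO_TAC 1 (0.31, 0.0948) and KO_TAC 3 (0.47, 0.0846). It was also lost without the 3 libraries that stand apart (0.46, adjusted p 0.0824). PBS_sham 2, at 261 CPM, was above all KO_TAC hearts.

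Timp3 and Timp4 were not called in either comparison of KO_TAC. Timp3 (ENSMUSG00000020044, chr10:86300372-86349506) encodes an inhibitor that stays bound to the matrix and also blocks ADAM proteases. Timp4 (ENSMUSG00000030317, chr6:115241892-115252205, minus strand) is the inhibitor known for its high level in heart. Both lie inside synapsin genes on the other strand, with 1733 exon bases of Timp3 shared with Syn3 and 90 of Timp4 shared with Syn2, and since the strand setting of the counting is not given their counts are uncertain. Syn3 itself had at most 1.17 CPM, and Syn2 at most 21.5 CPM. Timp3 in KO_TAC was 155, 36.9, 42.2 and 82.2 CPM, and the KO_sham and FF_TAC ranges of 57.4 to 212 and 50.8 to 111 CPM overlapped it, with 212 CPM in the library labelled KO_sham 2. Its change was −0.51 (SE 0.45, adjusted p 0.407) against KO_sham and −0.14 (SE 0.45, adjusted p 0.85) against FF_TAC. Timp4 was 13.1, 49.6, 11.7 and 14.1 CPM in KO_TAC, where library 2 alone was high, against 21.7 to 37.8 in KO_sham and 15.7 to 27.5 in FF_TAC. Its change was −0.35 (SE 0.47, adjusted p 0.594) against KO_sham, and −1.12 without KO_TAC 2 (adjusted p 0.0589). Against FF_TAC it was −0.07 (SE 0.47, adjusted p 0.932).

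The proteases are taken next, beginning with the gelatinases Mmp2 and Mmp9, which digest denatured collagen and basement membrane collagen. Mmp2 (ENSMUSG00000031740, chr8:92827291-92853420) was 147, 111, 110 and 122 CPM in KO_TAC. It was 86.2, 91.3, 63.3 and 73.5 CPM in KO_sham and 58.9, 70.7, 79.5 and 73.5 CPM in FF_TAC. All 4 KO_TAC hearts were above all hearts of the other 7 groups, of which PBS_TAC and AAV_TAC came closest with up to 94.6 and 95.0 CPM. Mmp2 rose by 0.64 against KO_sham (SE 0.13, adjusted p 0.00508) and by 0.80 against FF_TAC (SE 0.13, adjusted p 0.00199). With the haemoglobin split in the model the change against KO_sham was 0.48 and was not called (adjusted p 0.127), while against FF_TAC it was 0.68 (adjusted p 0.0125).

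Mmp9 (ENSMUSG00000017737, chr2:164940780-164955850), a gelatinase carried by neutrophils and other cells, had few counts, from 2 to 88 in the floxed cohort. In KO_TAC it was 4.09, 0.15, 0.278 and 0.655 CPM, so that library 1 was high and the other 3 low. KO_sham ran from 1.29 to 3.71 CPM, and FF_TAC from 0.307 to 4.82. The change against KO_sham was −0.79 (SE 0.87, adjusted p 0.514). Without KO_TAC 1 it was −2.63 and was called (adjusted p 0.0284), and with the haemoglobin split in the model its sign turned to 0.22. Of the 11 neutrophil markers listed, Ly6g, Ngp, Elane and Mpo were each at 0 in 27 of 30 libraries, and their summed list was 3.51 to 111 CPM in KO_TAC and 1.28 to 4.37 in KO_sham; Ltf, with up to 2206 counts, made up the high value.

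Mmp3 (ENSMUSG00000043613, chr9:7445822-7455975), known as stromelysin 1, cuts proteoglycans and other matrix proteins and can activate other MMP precursors. Its level in KO_TAC was 13.7, 32.4, 40.7 and 3.39 CPM. KO_sham had 6.09, 6.93, 4.21 and 7.89 CPM, and FF_TAC 6.74, 2.29, 1.59 and 3.15 CPM. KO_TAC 1 to 3 lay above all of these hearts, and KO_TAC 4 lay below every KO_sham heart and inside the FF_TAC range. Mmp3 rose by 2.70 against FF_TAC (SE 0.58, adjusted p 0.00732) and by 1.84 against KO_sham (SE 0.55, adjusted p 0.0255). The call against KO_sham was lost without KO_TAC 3 (1.38, adjusted p 0.104), KO_TAC 2 (1.61, 0.0709), KO_sham 3 (1.68, 0.0705) or KO_sham 1 (1.82, 0.0583). It was lost too with the haemoglobin split in the model (2.25, adjusted p 0.105). The call against FF_TAC was kept with the split (3.08, adjusted p 0.0188) and missed the threshold without the 3 libraries that stand apart (2.17, adjusted p 0.0501).

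The membrane-type enzymes Mmp14 and Mmp15 sit at the cell surface and moved in opposite directions. Mmp14 (ENSMUSG00000000957, chr14:54431612-54445364), also known as MT1-MMP, cuts fibrillar collagen and activates the Mmp2 precursor. It was 53.1, 70.6, 77.4 and 42.3 CPM in KO_TAC. It was 28.7, 16.2, 26.1 and 28.3 CPM in KO_sham, where the library labelled KO_sham 2 was the lowest, and 22.7, 27.6, 22.8 and 19.5 CPM in FF_TAC. The lowest KO_TAC heart was above the highest heart of every other group, which was PBS_sham 3 at 33.2 CPM. Mmp14 rose by 1.29 against KO_sham (SE 0.19, adjusted p 0.00117) and by 1.40 against FF_TAC (SE 0.19, adjusted p 0.000781), which are 2.45-fold and 2.63-fold. Both calls were kept with the haemoglobin split in the model (1.42, adjusted p 0.0254, and 1.47, adjusted p 0.00349) and without the 3 libraries that stand apart (1.12, adjusted p 0.00085, and 1.51, adjusted p 0.000371). Of the 6 genes called against KO_sham, Mmp14 was the 1 that the model with the split still called.

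Mmp15 (ENSMUSG00000031790, chr8:95352268-95375080), or MT2-MMP, was the 1 member that fell. It was 114, 44.0, 53.8 and 63.5 CPM in KO_TAC and 94.7, 105, 124 and 135 CPM in KO_sham. KO_TAC 1 lay inside the KO_sham range and the other 3 hearts below it. The fall against KO_sham was −0.73 (SE 0.25, adjusted p 0.0435). That call was lost when any library but KO_TAC 1 was left out, with changes from −0.82 without KO_sham 1 (adjusted p 0.0505) to −0.57 without KO_TAC 2 (adjusted p 0.12). The others were the library labelled KO_sham 2 (−0.78, 0.0589), KO_sham 3 (−0.70, 0.091), KO_sham 4 (−0.65, 0.109), KO_TAC 3 (−0.64, 0.127) and KO_TAC 4 (−0.70, 0.0823). Without KO_TAC 1 the change was −1.10. Against FF_TAC the change was −0.49 (SE 0.25, adjusted p 0.196), and without KO_TAC 1 it was −0.86 and called (adjusted p 0.0083). In FF_TAC itself Mmp15 was 121, 70.2, 78.9 and 117 CPM, below all 4 FF_sham hearts (126 to 159 CPM), as were 3.3% of all genes, a difference that was not called (−0.55, SE 0.25, adjusted p 0.442) and was −0.25 among the haemoglobin-high libraries alone.

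In KO_TAC against KO_sham, 6 of the 9 tested genes were called, 5 higher and 1 lower, where 25.8% of all 15596 genes tested were called (14.3% higher and 11.5% lower). In KO_TAC against FF_TAC, 5 of 9 were called, all higher, against 14.3% of all genes (7.53% higher). For 4 of 9 genes every KO_TAC library lay above every library of the other group in both comparisons, as did 11.1% of all genes in the first and 6.76% in the second. The median log2 fold change was 0.47 over the 9 genes and 0.02 over all genes in the first, and 0.80 and 0.04 in the second. The members were chosen with earlier results of these data known, so these shares are not those of genes picked blindly. Of 8 tested MMPs outside the members, 1 was called in each comparison. Both comparisons share the KO_TAC hearts, so their results are not independent of each other. In them Timp1, Timp2, Mmp2, Mmp3 and Mmp14 rose, and Timp3, Timp4 and Mmp9 were not called.

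**Figure D2:**
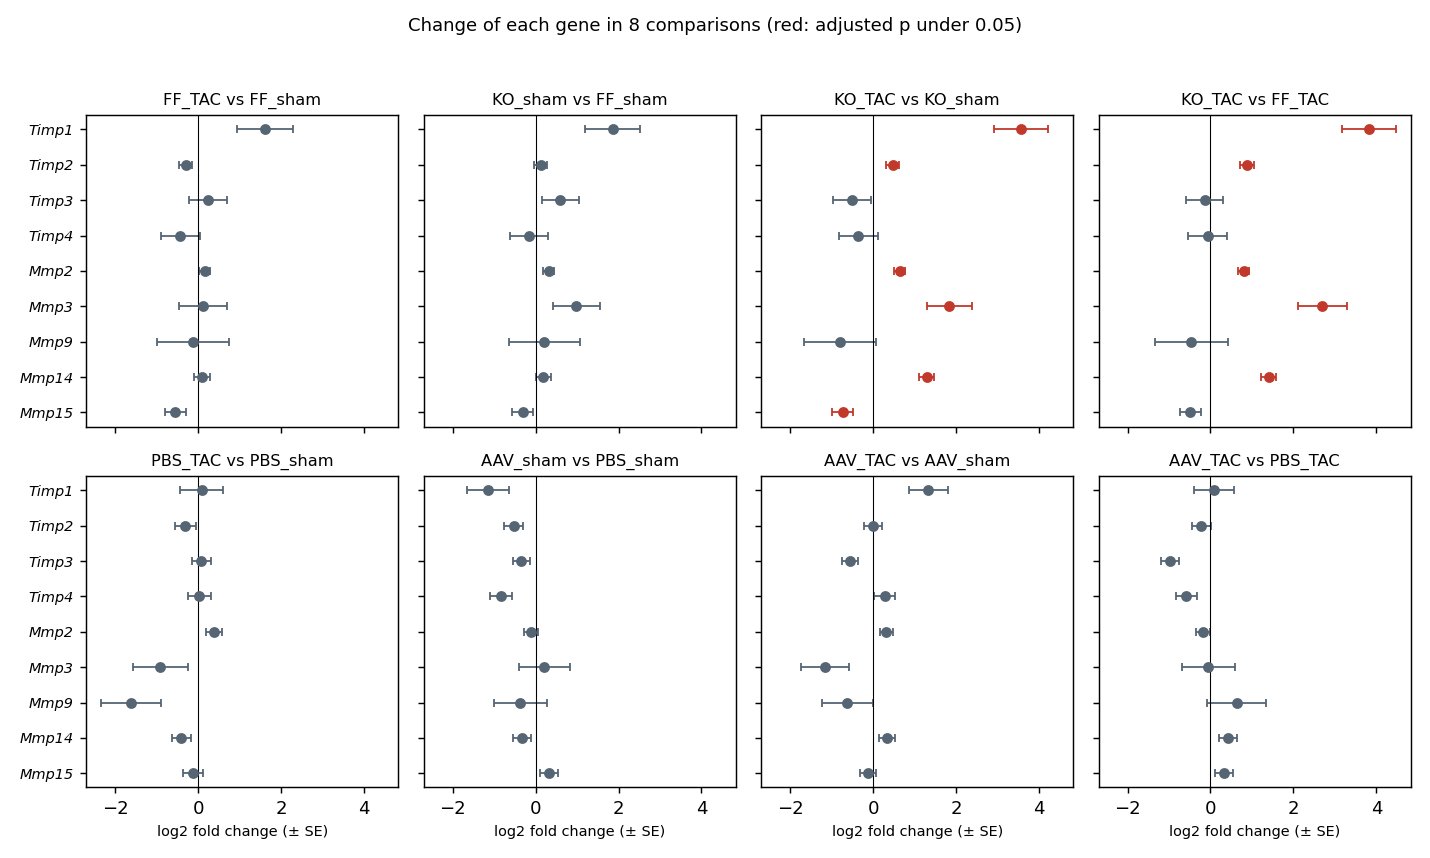
Log2 fold change with its standard error for the 9 tested genes in the 8 comparisons between pairs of groups, in red where the adjusted p was under 0.05. All 11 red points are in the comparisons of KO_TAC with KO_sham and with FF_TAC, and 10 of them are rises.

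No member was called in the other floxed comparisons. In FF_TAC against FF_sham, 0 of 9 genes were called by edgeR and by DESeq2 (0% of all genes by edgeR), and 2 had an unadjusted p under 0.05 (11.1% of all genes), Timp1 and Mmp15. In KO_sham against FF_sham, edgeR called 0 of 9 (0% of all genes). There 2 had an unadjusted p under 0.05 (5.22% of all genes), Timp1 and Mmp2 (0.32, SE 0.13, adjusted p 0.939). DESeq2 called no member there either, but it gave an adjusted p to only 2771 genes. Timp1 was not among them, so the DESeq2 result does not cover every member. Mmp3 in KO_sham lay above all 4 FF_sham hearts (2.71 to 3.53 CPM), as did 3.23% of all genes, and was not called (0.98, SE 0.57, adjusted p 1).

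The interaction asks whether the change with TAC differed between KO and FF hearts. For 0 of 9 genes was it called by edgeR (0.0449% of all genes), and 5 had an unadjusted p under 0.05 (13.1% of all genes). The count over all genes rested on single libraries: edgeR called 7, and 215 without KO_TAC 1, 102 without KO_TAC 4 and 825 without the 3 libraries that stand apart, while DESeq2 called 364. For Mmp14 it was 1.20 (SE 0.27, adjusted p 0.0962), for Timp2 0.76 (SE 0.22, adjusted p 0.158), for Timp1 1.96 (SE 0.91, adjusted p 0.374), for Mmp3 1.72 (SE 0.79, adjusted p 0.371) and for Mmp2 0.48 (SE 0.19, adjusted p 0.291). DESeq2 called Mmp14 (adjusted p 0.00678) and Timp2 (adjusted p 0.043). EdgeR called Mmp14 without KO_TAC 4 (1.34, adjusted p 0.0303), without KO_TAC 1 (1.25, adjusted p 0.0469) and without the 3 libraries that stand apart (1.17, adjusted p 0.0233).

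**Figure D3:**
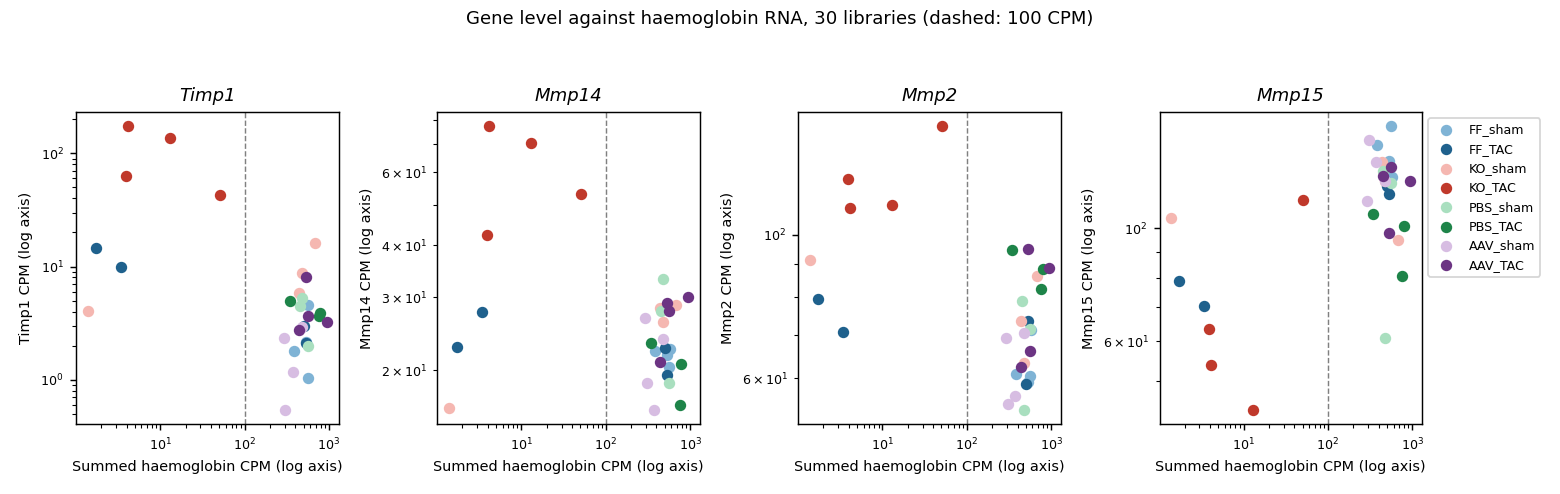
CPM of Timp1, Mmp14, Mmp2 and Mmp15 against summed haemoglobin CPM in each of the 30 libraries (log axes, a point per library, coloured by group, dashed line at 100 CPM). Left of the line, the 4 KO_TAC points lie above FF_TAC 2, FF_TAC 3 and the library labelled KO_sham 2 for Timp1 (42.9 CPM or more against 14.7 or less), Mmp14 and Mmp2.

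The make-up of each family is given per length, as CPM divided by the length of all exons of a gene. Timp2 made up most of the TIMP transcripts in FF_sham, 66.9% ± 4.6, with Timp1 at 5.02% ± 2.39 (SD, n = 4). In KO_TAC the share of Timp1 was 35.7, 72.8, 77.4 and 55.6% of TIMP transcripts, a mean of 60.4% ± 18.9, and that of Timp2 31.0% ± 13.6. The highest share of Timp1 in any other heart was 28.3%, in KO_sham 1, so the groups did not overlap. FF_TAC 2 and FF_TAC 3 had 25.2 and 26.7%, and FF_TAC 1 and FF_TAC 4 had 6.25 and 5.42%. With the length of the longest coding transcript in place of all exons, the KO_TAC mean was 57.5%.

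Among the MMPs, Mmp15 had the largest share per length in FF_sham, 51.5% ± 4.19, and Mmp2 was next with 36.7% ± 3.24. In KO_TAC Mmp2 had the largest share, 51.2% ± 9.35, followed by Mmp15 at 17.6% ± 6.69, Mmp3 at 16.7% ± 12.3 and Mmp14 at 14.1% ± 2.99. In the other 6 groups the mean share of Mmp15 was 35.5 to 47.1%, below that of Mmp2 in all but AAV_sham. The ratio of the summed 4 TIMPs to the 6 MMPs per length was 1.64, 2.96, 3.24 and 2.23 in KO_TAC. It was 1.25, 1.34, 1.20 and 1.17 in KO_sham and 0.897 to 1.45 in FF_TAC, all below the KO_TAC hearts. Its mean was 2.52 ± 0.724 in KO_TAC and 1.01 ± 0.194 in FF_sham (SD, n = 4 each). In the AAV9 cohort it was 1.53 ± 0.412 in PBS_sham and 1.32 ± 0.0902 in PBS_TAC (SD, n = 3 each), and 0.973 ± 0.0972 in AAV_sham and 0.964 ± 0.0361 in AAV_TAC (SD, n = 4 each). These ratios are of RNA and are given as descriptions, with no test.

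**Figure D4:**
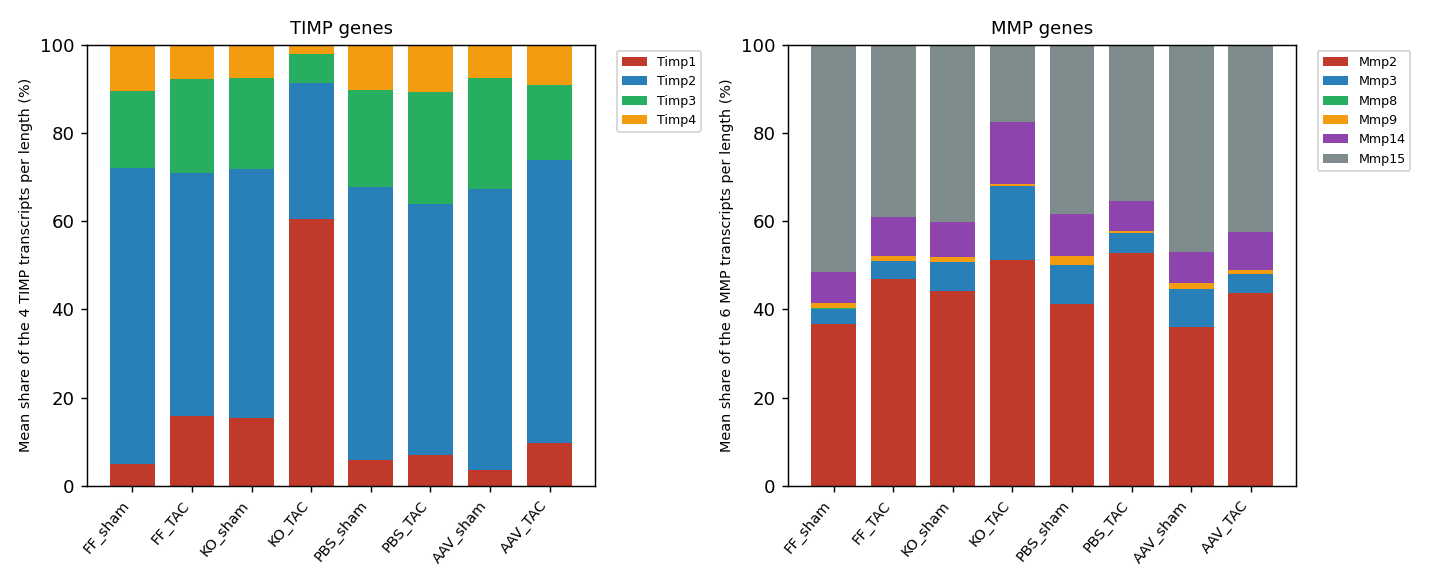
Mean share of each gene in the transcripts of the 4 TIMPs (left) and the 6 MMPs (right), in percent of CPM per length of all exons, in the 8 groups (bars stacked to 100%). Timp1 makes up 60.4% of the TIMP bar in KO_TAC and 5.02% in FF_sham, and Mmp15 makes up 17.6% of the MMP bar in KO_TAC and 51.5% in FF_sham.

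In the AAV9 cohort no member was called in any comparison by edgeR. PBS_TAC against PBS_sham called 0 of 9 genes (0.0318% of all genes), with 1 unadjusted p under 0.05 (18.5% of all genes), that of Mmp9 (−1.62, SE 0.73, adjusted p 0.259). Mmp2 was higher in all 3 PBS_TAC than in all 3 PBS_sham hearts (82.3 to 94.6 against 53.7 to 78.9 CPM), as were 8.11% of all genes, and was not called (0.38, SE 0.19, adjusted p 0.29). AAV_TAC against AAV_sham called 0 of 9 (0.00635% of all genes), with 2 unadjusted p under 0.05 (7.05% of all genes), those of Timp1 (1.33, SE 0.47, adjusted p 0.506) and Timp3. AAV_sham against PBS_sham called 0 of 9 (0.0127% of all genes), with 3 unadjusted p under 0.05 (20.7% of all genes), those of Timp1 (−1.15), Timp2 (−0.53) and Timp4 (−0.83, SE 0.26, adjusted p 0.159). Timp2 was called there without PBS_sham 1 (−0.73, adjusted p 0.045) and Timp4 without PBS_sham 2 (−1.16, adjusted p 0.0368). The test of whether the TAC change differed between AAV and PBS hearts called 0 of 9 (0.00635% of all genes), with 2 unadjusted p under 0.05 (6.95% of all genes), those of Timp3 (−0.64, SE 0.29, adjusted p 0.688) and Mmp14 (0.74, SE 0.31, adjusted p 0.688). By DESeq2 these 4 comparisons called 0 members too. The counts over all genes rested on which PBS_sham hearts were kept. Without PBS_sham 1, edgeR called 2821 genes in place of 2 in AAV_sham against PBS_sham. In PBS_TAC against PBS_sham it called 1796 without PBS_sham 1 and 81 without PBS_sham 3, in place of 5. PBS_sham 3 stood apart in marker RNA. PBS_sham 2 had a mean log2 CPM of atrial markers of 9.84, against 5.22 in PBS_sham 1 and 5.51 in PBS_sham 3. The part of tissue make-up in the comparisons with PBS_sham was not tested.

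Timp3 had the smallest p of the members in this cohort, in AAV_TAC against PBS_TAC, where 0 of 9 genes were called by edgeR (0.0381% of all genes) and 2 had an unadjusted p under 0.05 (3.19% of all genes). Cpt1a RNA itself overlapped between these groups, at 44.8 to 62.7 CPM in AAV_TAC and 40.3 to 61.6 in PBS_TAC. The level of Timp3 was 71.0, 55.3, 80.9 and 73.4 CPM in AAV_TAC. In PBS_TAC it was 144, 173 and 97.4 CPM, and in AAV_sham 133, 90.8, 94.1 and 93.7 CPM. All 4 AAV_TAC hearts were below all hearts of both groups, as were 4.27% of all genes against PBS_TAC and 5.79% against AAV_sham. The difference from PBS_TAC was −0.98 (SE 0.21, adjusted p 0.249) by edgeR and −0.97 (adjusted p 0.00622) by DESeq2, which called it. Against AAV_sham it was −0.55 (SE 0.19, adjusted p 0.495). Timp4 was also lower in all AAV_TAC than in all PBS_TAC hearts, 22.8 to 32.3 against 34.7 to 49.5 CPM, and was not called (−0.58, SE 0.26, adjusted p 1).

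Other proteases and the plasminogen system, which activates MMP precursors, were counted from lists. In KO_TAC against KO_sham, where 25.8% of all genes were called (14.3% higher and 11.5% lower), 1 of 8 tested other MMPs was called. With 1 library left out it was 1 to 3, and 8 genes are too few to set apart from the share over all genes. With all libraries the gene called was Mmp23, with 23.1 ± 6.53 CPM in KO_TAC and 10.0 ± 2.06 in KO_sham (SD, n = 4 each). Mmp23 rose by 1.20 on the log2 scale (SE 0.22, adjusted p 0.00268). Of 22 tested ADAM and ADAMTS proteases, 6 rose and 2 fell, where 14.3% of all genes rose and 11.5% fell. The largest rises were those of Adamts4, an aggrecan-cutting enzyme (3.96), Adamts8 (2.95) and Adamts20 (2.60), and the falls those of Adamts7 (−1.94) and Adamts3 (−1.05). Of 11 tested genes of the activation and plasminogen system 7 rose, among them Plaur, the urokinase receptor (3.96), and Plau, urokinase itself (1.77). Adamts4, Adamts7 and Adamts8 share exon bases with genes on the other strand and are uncertain.

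With the haemoglobin split in the model 0 of the 11 plasminogen and activation genes were called, where the calls over all genes fell from 4031 to 273 (1.75%), and the changes of Plaur and Plau were 0.82 (adjusted p 0.556) and 0.13 (adjusted p 0.864). Without the library labelled KO_sham 2 they were 5.69 and 2.23, and that of Adamts4 was 5.62. Leaving out 1 library ended several of these calls. Those of Plaur and Adamts4 were lost without KO_sham 1, KO_sham 3, KO_sham 4, KO_TAC 3 or KO_TAC 4 (lowest changes 3.49 and 3.63). That of Plau was lost without any of these 5 and without KO_TAC 2 (lowest change 1.48). The call of Adamts3 was lost without the library labelled KO_sham 2 (−0.95), KO_sham 4 (−0.99), KO_TAC 2 (−0.93) or KO_TAC 3 (−0.88), and without the 3 libraries that stand apart (−0.95, adjusted p 0.0567). That of Adamts8 was kept throughout, with 2.01 without KO_TAC 1. Of the genes named, Adamts7 was still called with the haemoglobin split in the model (−1.69, adjusted p 0.0443).

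In KO_TAC against FF_TAC, Mmp23 rose by 1.22 (SE 0.22, adjusted p 0.00262), 4 of 22 ADAM and ADAMTS genes rose and 1 fell, and 4 of 11 plasminogen and activation genes rose, where 14.3% of all genes were called (7.53% higher). The ADAM family rises with the largest changes were those of Adamts20 (1.96), Adam8 (1.68) and Adamts2, which trims procollagen (1.11), and the fall was that of Adamts7 (−1.62). Adam8 shares exon bases with a gene on the other strand and is uncertain. Its call was lost without KO_TAC 1 (0.94, adjusted p 0.107), FF_TAC 1 (1.67, 0.0873), FF_TAC 3 (1.46, 0.0844) or FF_TAC 4 (1.69, 0.0949), and without the 3 libraries that stand apart (1.67, adjusted p 0.0739). That of Adamts20 was lost without FF_TAC 1 (1.62), FF_TAC 4 (2.02), KO_TAC 3 (1.80) or KO_TAC 4 (1.73). The plasminogen and activation genes were led by Ctsk (1.21) and Ctss (1.09), which encode matrix-cutting cathepsins, and Serpine2, which encodes a protease inhibitor (1.17). The call of Ctss was lost without FF_TAC 1 (0.97), FF_TAC 4 (1.11) or KO_TAC 3 (1.01). With the haemoglobin split in the model the calls of Ctsk (1.02, adjusted p 0.0623), Adamts20 (1.60, adjusted p 0.113) and Adam8 (1.88, adjusted p 0.0651) were lost. Those of Mmp23 (1.14), Adamts2 (1.15), Adamts7 (−1.39), Ctss (1.23) and Serpine2 (1.09) were kept, and over all genes the calls fell to 7.23%. In the other 8 comparisons edgeR called 0 genes of these 3 lists. Of 328 tests of these genes, 63 gave an unadjusted p under 0.05, where 3.19 to 20.7% of all genes did, depending on the comparison. The 63 are a share near the upper end of that range. They pool comparisons with unlike shares, so no single share over all genes stands beside them. DESeq2 made 13 calls among these genes, where it called 14 to 364 of the 2771 to 20183 genes given an adjusted p in a comparison.

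Markers of other cell types are given beside these genes. The summed CPM of 8 fibroblast markers, the cells that make much of the Mmp2, Mmp14 and TIMP RNA of the heart, was 2830 to 4040 in KO_TAC, 1850 to 2880 in KO_sham and 1770 to 2210 in FF_TAC. Of the 8, 2 rose against KO_sham (14.3% of all genes did) and 4 against FF_TAC (7.53% of all genes), and none was at 0 in any library. Pdgfra, a growth factor receptor, had a mean of 26.2 CPM in KO_TAC and 34.7 in KO_sham, while Mfap5 had 121 and 19.4. Summed macrophage markers were 433 to 491 CPM in KO_TAC, 326 to 683 in KO_sham and 267 to 309 in FF_TAC, with 0 of 8 markers higher and 1 lower against KO_sham and 4 higher against FF_TAC. Summed endothelial markers were 580 to 751 CPM in KO_TAC and 748 to 964 in KO_sham, and 5 of 7 fell (11.5% of all genes did). Summed cardiomyocyte markers were 44600, 62500, 45400 and 43600 CPM in KO_TAC, 50200 to 57300 in KO_sham and 52400 to 59600 in FF_TAC. Of these 8 markers, 1 rose and 3 fell against KO_sham (14.3% and 11.5% of all genes). Against FF_TAC 0 rose and 3 fell, where 1060 of all 15596 genes fell. The part of cell make-up in the changes of the MMPs and TIMPs was not tested.

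Across the 30 libraries, with each gene centred on its cohort mean, Timp1 varied together with Mmp14 (Pearson r 0.87) and Mmp2 (0.78) and opposite to Mmp15 (−0.80). Over the 26 libraries without KO_TAC these were 0.58, 0.58 and −0.68. Timp2 and Mmp3 had r 0.64 over 30 and 0.58 over 26 libraries. Timp4 had r from −0.30 to −0.01 with the other 8 tested genes. The genes whose log2 CPM was most like that of Timp1 were Capg (0.94), Lox (0.93) and Gpx1 (0.93). Those most like Mmp14 were Faap20, Lox and Prr13 (0.90 each), and those most like Mmp2 were Emp1 (0.87), Stx12 and Sdc2 (0.86 each). For Timp2 they were Col14a1 (0.91), Rnase4 (0.90) and Fn1 (0.89), for Mmp3 Sfrp1 (0.84), Apoe (0.83) and Ssr1 (0.82), and for Mmp15 Iqsec1, Eif4ebp2 (0.95 each) and Zfp652 (0.94). For Timp3 they were Arhgap31 (0.87), Reck (0.83) and Thrap3 (0.81), for Timp4 Slc9a3r2 (0.75), Rbp7 and Fam117b (0.74 each), and for Mmp9 Slc9a2 (0.84), Mgat3 and Wnt5a (0.83 each). Over the 26 libraries without KO_TAC, r for the named genes was 0.63 to 0.68 for Mmp14 and 0.66 to 0.71 for Mmp3. It was 0.79 to 0.84 for Timp1 and 0.89 to 0.91 for Mmp15. These values are descriptions over libraries that share groups and, in 7 libraries, low haemoglobin RNA. The genes named are the 3 with the highest r among 10546 genes.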

How the data were processed

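The authors deposited 1 table of raw read counts per gene (whole numbers, Ensembl mouse identifiers) for the 30 heart libraries. Per the labels' protocols, poly(A) RNA with an RNA integrity number over 7 was made into directional libraries. The submitters' processing notes name GRCm38, HISAT2 2.1.0, featureCounts and Subread 1.5.1, and the annotation release and the strand setting are not given in the sources used here.

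Gene symbols and coordinates came from GENCODE M21 on GRCm38, which matched 55227 of 55487 identifiers. Counts without a symbol were 0.00336% of the total. Groups followed the genotype and treatment labels. For the KO_TAC samples these labels match the column names of the count table, but the sample titles read TAC Sham. Each cohort was fitted alone with edgeR 4.0.16 in R 4.3.3 (filterByExpr, TMM, 1 mean per group, 2-sided quasi-likelihood F test), with Benjamini-Hochberg adjustment over all 15596 (floxed) or 15745 (AAV9) genes tested, and a gene was called at an adjusted p under 0.05. Total counts of 14839758 to 22070373 per library set the precision for genes with few counts. P-values measure the spread between these hearts, and the labels say no more of how the hearts are independent. No pair of libraries within a group agreed within sampling noise (chi-square per degree of freedom 6.29 to 234 over 42 pairs). The fit was tested on simulated counts with known changes. For KO_TAC against KO_sham it called 45.9% of the 2-fold and 86.9% of the 4-fold changes. For AAV_TAC against AAV_sham it called 51% and 81.8%. A gene that was not called may therefore still have changed by 2-fold.

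Named were all 10 members and, of 3 lists of related proteases, up to 3 called genes a direction with the largest change, if the higher group averaged 1 CPM or more. Likeness was Pearson's r of log2 CPM (prior count 2) over libraries centred on cohort means, for genes averaging 5 CPM or more. A gene that this rule names is not reported here. The members and lists were chosen with earlier results of these data known. Alternatives were DESeq2 1.42.0, RLE size factors, no filter, a replicate block, a term for haemoglobin RNA under 100 CPM, only libraries on 1 side of that limit, log2 Myl7 as a covariate (AAV9 cohort), and leaving out each library. Leaving out 3 libraries together and other transcript lengths were chosen after seeing the data. The miR370 work was not analysed here.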

Additional observations from a re-analysis of the deposited data

Results flagged for a closer look

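Of 58 gene and group combinations with 4 hearts and a value, 7 had 1 heart far from the other 3. The rule picks about 1 in 20 where values are normally distributed. Genes with few counts are not, so the 7 are not compared with that rate. Timp3 in AAV_sham 1 was 133 CPM, and the other AAV_sham hearts had 90.8 to 94.1 CPM. Mmp3 in the same heart was 23.6 CPM, against 2.92 to 5.33 CPM. Timp4 in KO_TAC 2 was 49.6 CPM, against 11.7 to 14.1 CPM in the other KO_TAC hearts. Mmp9 in KO_TAC 1 was 4.09 CPM, against 0.15 to 0.655 CPM. Mmp2 in FF_sham 2 was 71.3 CPM, against 59.3 to 61.0 CPM. Mmp8 was 0 CPM in the library labelled KO_sham 2, against 0.0461 to 0.0523 CPM in the others, and 0.0556 CPM in KO_TAC 3, against 0 in the others, values that stand for 0 or 1 count.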

How the results depend on the processing

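Of 249 values for single members under an alternative other than leaving out 1 library, 222 kept their direction and their side of the threshold, 15 lost a call, 4 gained one and 8 changed sign. With 1 library left out these were 369, 17, 6 and 13 of 405. Most of these values are of changes that were not called and so had no call to lose. The 17 lost calls were all in KO_TAC against KO_sham. Of 8 libraries left out in turn, 6 ended the call of Timp2, 4 that of Mmp3 and 7 that of Mmp15. For KO_TAC against KO_sham, 6 members were called, 1 with the haemoglobin term and 3 to 6 when 1 library was left out. For KO_TAC against FF_TAC, 5 were called, and 0 among haemoglobin-low libraries. The KO interaction had 0 calls, 2 by DESeq2, 1 without the 3 libraries that stand apart and 0 to 1 with 1 library left out. AAV_TAC against PBS_TAC had 0, and 1 by DESeq2. AAV_sham against PBS_sham had 0, and 0 to 1 with 1 library left out. The cause was not tested.

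The signs that turned were of changes that were not called. Mmp9 in KO_TAC against KO_sham was 0.22 with the haemoglobin term. Against FF_TAC it was 0.39 with that term, 0.57 among haemoglobin-low libraries and −2.30 to 0.69 with 1 library left out. Timp3 against FF_TAC was 0.10 among haemoglobin-low libraries and −0.71 to 0.09 with 1 left out. Timp4 against FF_TAC was 0.16 with the term, 0.14 among haemoglobin-low libraries and −0.84 to 0.13 with 1 left out. In the KO interaction Mmp9 was −2.51 to 0.49 and Timp4 −0.69 to 0.30 with 1 left out, and Timp4 was −0.24 without the 3 libraries.

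Nothing in the labels says whether same-numbered hearts are paired. Of 43 same-numbered pairs, 16 had a correlation of deviations over 0.1 (−0.41 to 0.45). Pairs of unlike number were not set beside them, so these values cannot decide it. With the replicate block, KO_TAC against KO_sham called 4 members, without Timp2 (0.46, adjusted p 0.0649) and Mmp3 (1.70, adjusted p 0.062), KO_TAC against FF_TAC called 5, the call of Adam8 there was lost (1.56, adjusted p 0.0735), and the interaction of Timp4 was −0.06.

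Over all genes, KO_TAC against KO_sham called 4031, 273 with the haemoglobin term and 1956 (without KO_TAC 3) to 6441 (without KO_TAC 1) with 1 left out. KO_TAC against FF_TAC called 2235, 1127 with the term, 0 among haemoglobin-low libraries, 3663 without the 3 libraries and 1124 (without FF_TAC 4) to 3845 (without KO_TAC 1) with 1 left out. DESeq2 called 166 genes where edgeR called 0 in FF_TAC against FF_sham, 14 against 0 in KO_sham against FF_sham, and 364 against 7 in the KO interaction. In the AAV9 cohort it called 363 against 5 (PBS_TAC and PBS_sham), 96 against 1 (AAV_TAC and AAV_sham), 329 against 2 (AAV_sham and PBS_sham), 36 against 6 (AAV_TAC and PBS_TAC) and 16 against 1 (interaction). Depth limits Mmp8 and Mmp9.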

Other observations

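Mmp8 RNA was at or near 0 in this study, with 20 counts over 30 libraries. It was at 0 in 14 of 15 TAC hearts and in 4 of 15 sham hearts, and its highest level was 0.151 CPM, in AAV_sham 1. The 15 TAC libraries held 1 count in 270300039 and the 15 sham libraries 19 in 269562631. Every library lies at or under 3 counts, the limit that a count of 0 allows, and no fold or test is given.

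Mmp3 and Mmp9 varied together over the 26 libraries without KO_TAC (Pearson r 0.72) and had r 0.12 over all 30. Mmp2 and Mmp14 had r 0.61 over all 30 libraries and 0.09 over the 26. Both are given as descriptions of libraries that share groups.

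The summed CPM of 5 atrial markers was 4500 to 17200 in KO_TAC, 106 to 3160 in KO_sham and 153 to 492 in FF_TAC. In KO_TAC and FF_TAC most of it was Nppa, with means of 7260 and 273 CPM, which the loaded ventricle is also known to express. In KO_sham Nppa averaged 573 CPM and was less than the other markers together, with Myl7 at 249, Myl4 at 317 and Sln at 89.2 CPM. The mean log2 CPM of the 5, in which Nppa weighs no more than the others, was 9.31 in KO_TAC 1 and 1.38 to 2.25 in the other KO_TAC libraries. It was 7.07 and 6.50 in the library labelled KO_sham 2 and in KO_sham 4, 0.30 and 0.24 in KO_sham 1 and KO_sham 3, and 4.79 in FF_TAC 1 against −0.01 to 0.45 in the other FF_TAC libraries. The part of atrial tissue in the changes of the MMPs and TIMPs in KO_TAC was not tested.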
